A study of Mus musculus with 4 samples.

Results

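Cytosolic ribosomal proteins are the proteins that, with ribosomal RNA, make up the cytosolic ribosome, and their genes were examined for SHP binding in mouse liver. The genes were chosen by symbol among the protein-coding genes of the GENCODE M1 annotation (mm9): Rpl or Rps followed by a digit, the acidic stalk proteins Rplp0, Rplp1 and Rplp2, and Rpsa. Ribosomal S6 kinase genes, Rps19bp1, Rpl7l1, Rpl22l1 and pseudogene symbols were left out. This gave 82 of 22380 genes, 49 for the large (60S) and 33 for the small (40S) subunit. SHP (small heterodimer partner) was located by chromatin immunoprecipitation and sequencing (ChIP-seq) in livers of male wild-type C57BL/6 mice of 8-12 weeks. All mice had fasted for 12 h, and livers were taken 2 h after a tail vein injection of vehicle or of FGF19 (1 mg/kg). Each group pooled 3 mice into 1 ChIP library with 1 input library, which leaves no replicate error, and no difference between the groups was tested. Whole liver was used, so fewer cells with SHP at a site and less SHP per cell cannot be told apart, and the peak lists hold no expression values against which the tissue label could be checked.

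The small subunit decodes mRNA and the large subunit forms the peptide bond. Ribosomal protein genes are transcribed in every growing cell, have short promoters without a strong tissue preference, and give mRNAs that begin with a run of pyrimidines (the TOP motif), through which translation follows nutrient signals. Many of them carry small nucleolar RNAs (snoRNAs) in their introns. SHP, a nuclear receptor with no known ligand, lacks a domain that binds DNA and reaches chromatin through other proteins. FGF19 is an intestinal hormone that reaches the liver after a meal.

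Close to the same number of ribosomal protein genes had an SHP peak in each list, but of the 37 genes with a peak only 1 was shared by the lists. Within 5 kb of the gene body, 18 of the 82 genes (22.0%, 95% interval 14.4 to 32.1) had a peak in the vehicle list, against 7.93% of all protein-coding genes. In the FGF19 list 20 genes (24.4%, 16.4 to 34.7) had one, against 16.3% of all genes. A single gene, Rps19, had a peak in both lists, which was 1.22% of the members (0.216 to 6.59) against 4.31% of all genes. That interval held the share of all genes. Peaks in the vehicle list only were found at 17 genes (20.7%, against 3.62% of all genes), and in the FGF19 list only at 19 genes (23.2%, against 12% of all genes). All intervals are by Wilson's method and reflect counting error alone. Neighbouring genes can share a peak, so the counts over all genes are not independent of each other.

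At the promoters the counts were equal. With a summit within 1 kb of an annotated transcription start site (TSS) of the gene, 16 members (19.5%, 12.4 to 29.4) had a peak in the vehicle list and 16 in the FGF19 list. Over all protein-coding genes the same rule gave 5.52% and 12.5%, so the FGF19 list reached more promoters in the genome as a whole while the members stayed level. Both lists held a promoter peak at 1 member (1.22%, 0.216 to 6.59) and at 2.59% of all genes, a share inside that interval. Of the 16 members with a vehicle promoter peak, 6.25% (1.11 to 28.3) also had one in the FGF19 list, whereas 46.8% of all genes with a vehicle promoter peak did.

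**Figure D1:**
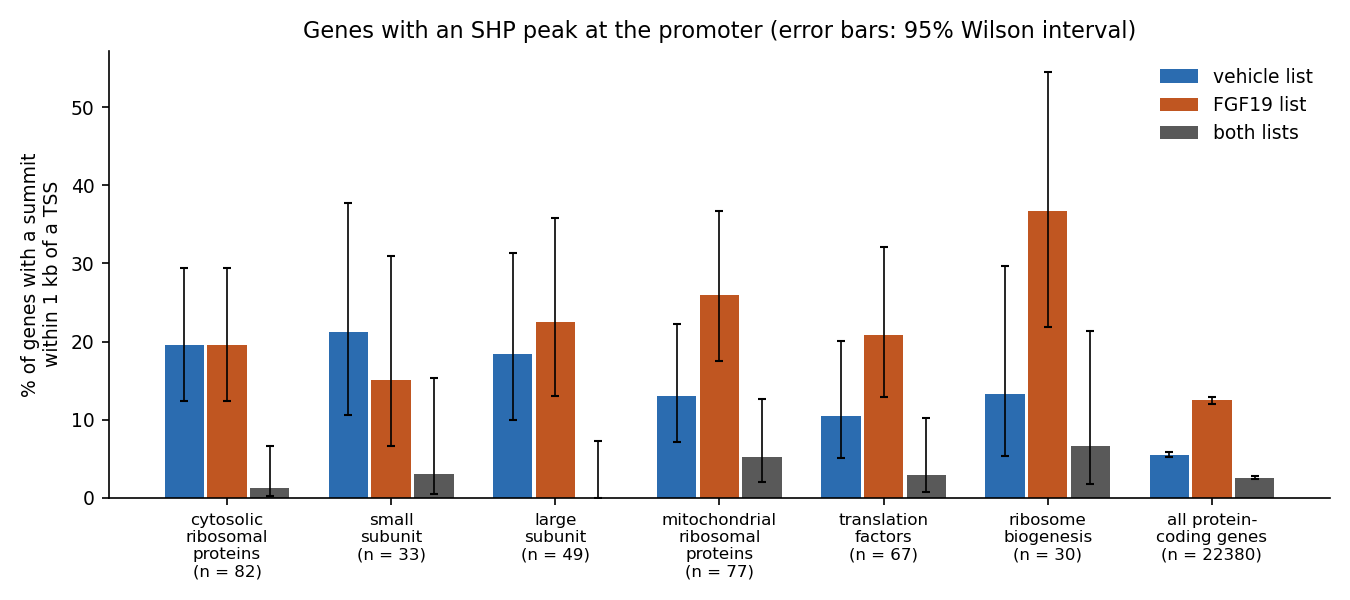
Percent of genes with a peak summit within 1 kb of a TSS (y axis) for 7 sets of genes (x axis, with the number of genes), in the vehicle list, the FGF19 list and both lists; error bars are 95% Wilson intervals, which cover counting error only. The cytosolic ribosomal protein genes stood at 19.5% in both lists, with 1.22% in both, while all protein-coding genes stood at 5.52% and 12.5%.

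The subunits differed in direction by small counts. Of the 49 large subunit genes, 10 had a vehicle peak and 14 an FGF19 peak within 5 kb, and none had both. Of the 33 small subunit genes, 8 had a vehicle peak and 6 (18.2%) an FGF19 peak, with Rps19 in both. Over all protein-coding genes the shares were 7.93% with vehicle, 16.3% with FGF19 and 4.31% in both. The interval of the large subunit share in both lists reached 7.27% and so held that of all genes. The intervals of the vehicle shares (11.5 to 33.6 for the large and 12.8 to 41.0 for the small subunit) and of the FGF19 shares (17.8 to 42.4 and 8.61 to 34.4) overlapped.

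The size of the lists bears on these counts. The FGF19 list holds 3155 peaks and the vehicle list 1508. Cut to the length of the vehicle list by keeping the smallest q-values, the FGF19 list held peaks at 8 members (9.76%, 5.03 to 18.1), against 8.06% of all genes. These 8 were Rpl18, Rpl23a, Rpl24, Rpl27a, Rplp0, Rplp2, Rps19 and Rps20. At a fold enrichment of 4 or more, 7 members kept a vehicle peak (8.54%, against 4.27% of all genes), and 11 kept an FGF19 peak (13.4%, against 8.61%). The other 11 vehicle and 9 FGF19 members were called on peaks under that level.

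The deposited lists give for each peak the pileup, which is the number of extended tags over the summit, and the fold enrichment, which is the pileup over the local background from the input with 1 added to each. The local background in tags was worked back from these values. After the duplicate filter the ChIP libraries held 15473647 tags with vehicle and 13444078 with FGF19, and the inputs 16164473 and 17367587. Pileups are given as deposited, and neither they nor the backgrounds were scaled between the libraries unless stated.

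In the vehicle list the highest member was Rps12, a small subunit protein of the 40S head region. Its pileup was 53 over a background of 4.84, a fold enrichment of 9.25, higher than 96.1% of the peaks of that list. The summit lay 182 bp upstream of the TSS, and the nearest FGF19 summit was 838067 bp away. Rpl21, of the large subunit, had the highest pileup of the members, 54 over 7.66, and a fold enrichment of 6.35. Its summit was 78 bp upstream of the nearest TSS. Rps27a, which encodes ubiquitin fused to a small subunit protein, had a pileup of 44 over 7.83 and a fold enrichment of 5.09, with the summit 89 bp inside the gene. That summit was closer, at 70 bp, to the divergent gene 1700034F02Rik. These 3 genes had pileups of 44 to 54, and every other member peak in either list was at 34 or less.

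The other vehicle promoters were near the middle of the list or under it. Rpl36al, an Rpl36a paralogue, had a pileup of 26 and a fold enrichment of 4.67. Rps7 reached 4.15 with a pileup of 27, and Rpl12, at the base of the stalk, reached 4.00 with a pileup of 26. Rpl34 (3.90), Rps3 (3.74), Rpl7a (3.70), Rpl36 (3.65) and Rpl7 (3.12) followed, with pileups from 20 to 31. Rps3 lines the channel through which mRNA enters the ribosome. The lowest fold enrichments were at Rpl26 (2.99), Rpl10a (2.86), Rps23 (2.82), Rps19 (2.80) and Rps27 (2.74). Rpl10a and Rps19 had high pileups for these values, 32 and 34, over backgrounds of 10.5 and 11.5, whereas Rps23, a protein of the decoding centre, had the lowest pileup of the vehicle members, 18 over 5.74. The Rps27 summit, 141 bp upstream, was nearer to the TSS of Rab13 (97 bp).

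In the FGF19 list the highest member was Rplp0, the core of the acidic stalk that brings elongation factors to the ribosome. Its promoter peak had a pileup of 29 over a background of 4.04 and a fold enrichment of 5.96, with the summit 43 bp upstream of the TSS. Rps20 followed with a pileup of 22 over 3.10, a fold enrichment of 5.61 and the summit 46 bp downstream. Both backgrounds were under the median of FGF19 promoter peaks (5.42). Rpl8, a neighbour of the peptidyl transferase centre, stood at 4.45 (pileup 18), Rps2, at the mRNA entry site, at 4.39 (pileup 17) and Rpl24, which bridges the subunits, at 4.36 (pileup 28). Rps19 (4.31), Rpl17 (4.15) and Rpl27a (4.09) completed the members with a promoter peak of 4 or more.

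Fold enrichments under 4 included those at Rpl18 (3.83), Rpl38 (3.75), Rpl31 (3.68), Rpl37 (3.61), Rpl13 (3.32), Rps21 (3.20) and Rpl19 (2.98). Rpl38 is known for a role in the translation of Hox mRNAs, and Rpl31 and Rpl17 sit at the exit of the peptide tunnel. Rpl19 had the highest pileup of the promoters in the FGF19 list, 32, over the highest background, 10.1. The Rpl18 summit, 239 bp upstream of Rpl18, was 11 bp from the TSS of the divergent gene Sphk2.

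**Figure D2:**
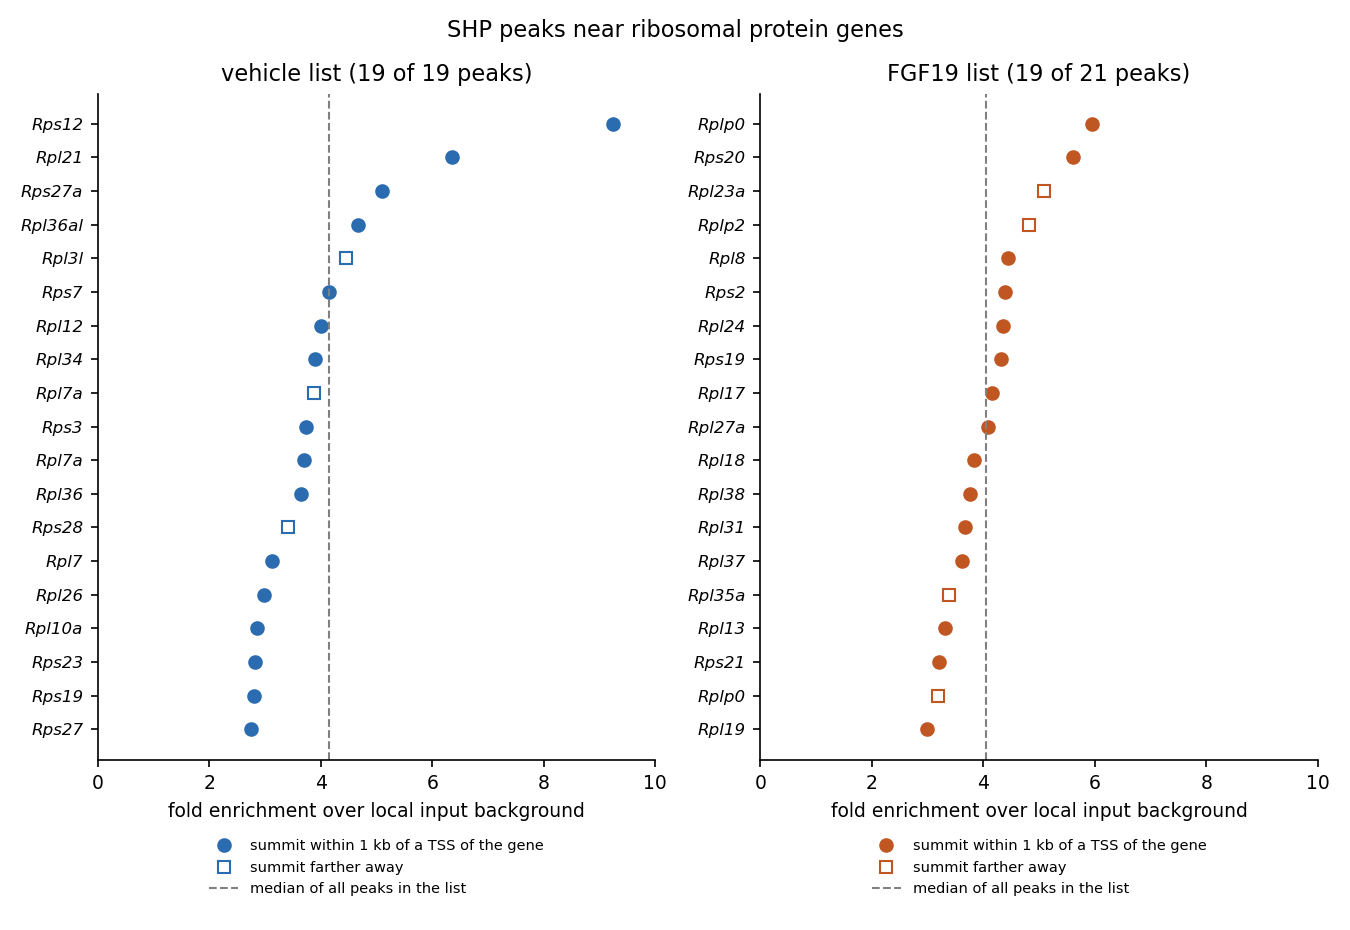
Fold enrichment over the local input background (x axis) of each SHP peak within 5 kb of a cytosolic ribosomal protein gene (y axis, by gene) in the vehicle list (19 peaks) and the FGF19 list (19 of 21 peaks drawn); filled circles are peaks with the summit within 1 kb of a TSS of the gene, open squares are farther away, and the dashed line is the median of all peaks of that list. Rps12 at 9.25 stood apart from the other members, and the names on the left and right differ except for Rps19.

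The medians of the member promoters were near those of other promoter peaks. Their median fold enrichment was 3.72 in the vehicle list and 3.96 in the FGF19 list, against 3.97 in both lists for all peaks at protein-coding promoters (1077 and 2524 peaks). The median pileup was 26.5 and 26, against 24 in both lists. The median background was 6.46 and 5.95, against 5.53 and 5.42. In both lists the members thus had slightly more tags over a slightly higher background than promoters at large. In the vehicle list the quartiles of their fold enrichment (2.96 and 4.28) were both under those of all promoter peaks (3.41 and 4.67). In the FGF19 list the quartiles were 3.66 and 4.37, against 3.43 and 4.62.

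**Figure D3:**
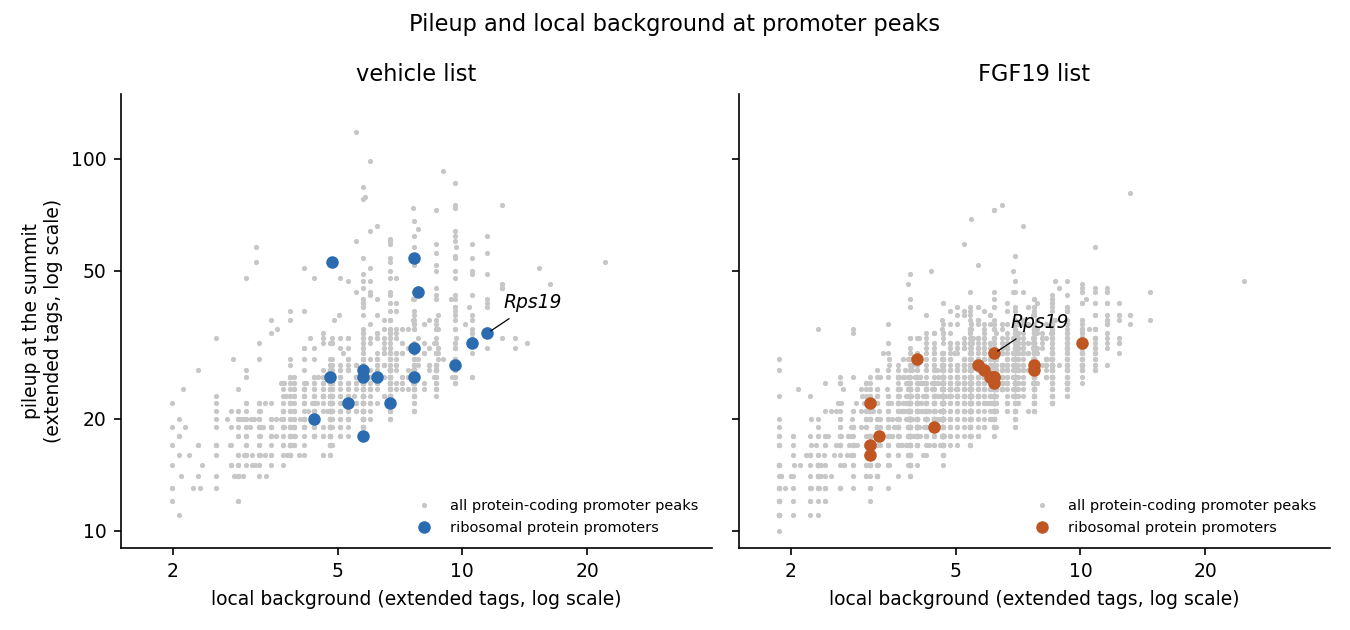
Pileup at the summit (y axis, extended tags, log scale) against the local background (x axis, extended tags, log scale) for all peaks at protein-coding promoters (grey) and those at cytosolic ribosomal protein promoters (coloured) in the vehicle and FGF19 lists; 8 FGF19 peaks of other genes lie outside the axes. Most members sat inside the grey cloud, 3 vehicle members had pileups of 44 or more, and Rps19 had nearly the same pileup in both lists over a background of 11.5 and 6.19.

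Rps19, a small subunit protein whose gene is mutated in Diamond-Blackfan anaemia, was the only member with overlapping peaks. The vehicle peak (chr7:25669354-25669708) lay wholly inside the FGF19 peak (chr7:25669151-25669924), an overlap of 355 bp, with summits 144 bp apart. The pileup was 34 with vehicle and 30 with FGF19. Scaled to 1000000 filtered tags these were 2.20 and 2.23, a log2 ratio of 0.02 (FGF19 over vehicle). This scaling corrects neither for the fragment length (240 bp with vehicle, 260 bp with FGF19) nor for the distance between the summits. The fold enrichment rose from 2.80 to 4.31 (log2 ratio 0.62), over backgrounds of 11.5 with vehicle and 6.19 with FGF19. The -log10 q-value was 3.69 and 7.57. At this gene the tags over the 2 summits were close in number once scaled to depth alone. The local background was lower where the fold enrichment was higher. The part of the background in the difference was not tested.

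Overlap with the opposite list was rare at the member promoters. Among the promoter peaks, 1 of 16 in each list overlapped a peak of the other list, against 42.5% of the 1077 vehicle and 18.3% of the 2524 FGF19 peaks at protein-coding promoters. The share common to both lists was 37.3% of all vehicle promoter peaks with a fold enrichment under 4 and 48.0% of those at 4 or more, and among the members it was 1 of 10 and 0 of 6. For the 15 vehicle members without a common peak, the closest FGF19 summit was 13537 to 4449561 bp away (median 102182). For the 15 FGF19 members the closest vehicle summit was 16400 to 1502965 bp away (median 194655). A gene outside a list has no value in it, so absence from a list says only that no peak passed the authors' threshold there, not that SHP was absent.

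Summits were close to the start of transcription. Of the member peaks within 5 kb, 16 of 19 (84.2%, 62.4 to 94.5) in the vehicle list and 16 of 21 (76.2%, 54.9 to 89.4) in the FGF19 list had the summit within 1 kb of a member TSS. The distances at these promoters ran from 182 bp upstream to 171 bp downstream with vehicle and from 239 bp upstream to 324 bp downstream with FGF19, with medians of 0 and 5.5 bp. The nearest of all annotated transcripts was taken, which favours short distances. Of the 16 summits, 8 with vehicle and 6 with FGF19 lay upstream of that TSS. Some of these still fell inside a longer transcript of the gene. Placed on the protein-coding transcripts that span them, 10 vehicle summits lay in an exon and 1 in the first intron, and 5 lay upstream of every such transcript. In the FGF19 list the counts were 9, 3 and 4. The 3 summits farthest downstream of the nearest TSS were all in the FGF19 list. These were Rpl17 at 219 bp in the first intron and Rpl8 and Rpl31 at 295 and 324 bp in the second exon.

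**Figure D4:**
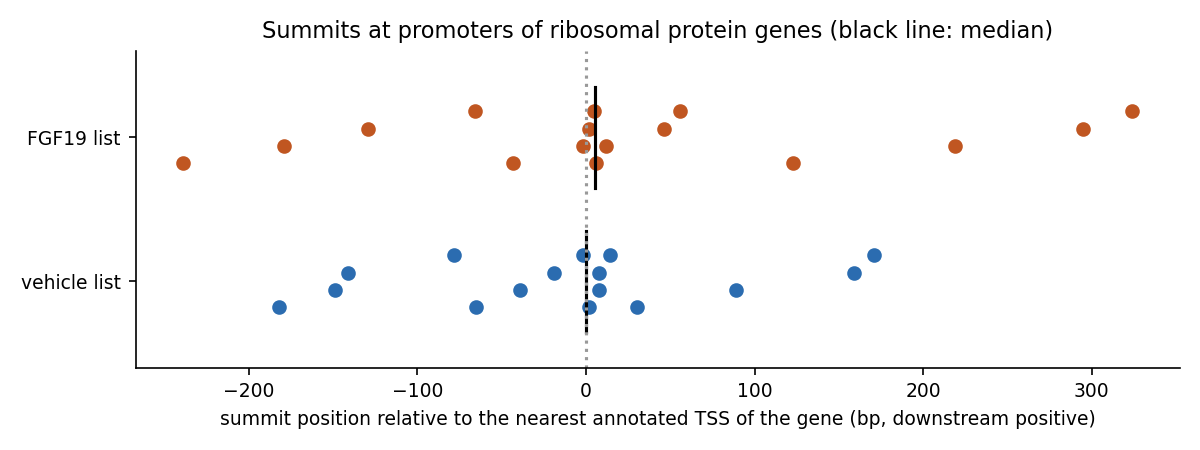
Position of the summit relative to the nearest annotated TSS of the gene (x axis, bp, downstream positive) for the 16 member promoter peaks of each list (y axis), with the median as a black line. The points gather around the start in both lists, with medians of 0 bp (vehicle) and 5.5 bp (FGF19), and the 3 farthest downstream are in the FGF19 list.

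All 8 member peaks away from a member TSS, 3 with vehicle and 5 with FGF19, lay beyond the 3′ end of the member and nearer to the TSS of another gene. In the vehicle list these were a peak next to Rpl3l, the striated muscle paralogue of Rpl3 (15 bp from the TSS of Sepx1), a second peak next to Rpl7a (55 bp from Surf1) and one next to Rps28 (1257 bp from Kank3). Their fold enrichments were 4.45, 3.89 and 3.41. In the FGF19 list they included peaks next to Rpl23a (95 bp from Tlcd1), Rplp2 (121 bp from Pnpla2), Rpl35a (5 bp from Lmln) and, as a second peak, Rplp0 (163 bp from Gcn1l1). Their fold enrichments were 5.09, 4.82, 3.39 and 3.19. Pnpla2 encodes adipose triglyceride lipase. Only the distance rule ties these peaks to ribosomal protein genes, and 6 members, among them Rpl3l, Rps28, Rpl23a, Rplp2 and Rpl35a, were counted through such a peak alone.

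The 5 kb limit fell in a gap. The farthest peak inside it lay 3614 bp from the gene body (Rplp2, FGF19 list), and the nearest outside lay 6131 and 6145 bp away, both next to Rpl3l, one in each list. Within 10 kb Rpl3l was the only further member with peaks in both lists, and Rpl29 and Rps29 gained a peak, at 6760 bp with FGF19 and at 9327 bp with vehicle.

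A peak within 5 kb in either list was found at 45.1% of the members, against 19.9% of all protein-coding genes. No peak within 5 kb was listed for 45 members, 25 of the large and 20 of the small subunit. The large subunit genes included Rpl3, Rpl4, Rpl5, Rpl6, Rpl10, Rpl11, Rpl14, Rpl22, Rpl29, Rpl32 and Rplp1. Rpl5 and Rpl11 bind 5S ribosomal RNA and, free of the ribosome, Mdm2. The small subunit genes included Rps3a, Rps4x, Rps6, Rps9, Rps14, Rps15, Rps18, Rps24, Rps29 and Rpsa. Rps6 is the substrate of the S6 kinases. Of the 13 relatives left out by the rule, Rps6ka5 had a vehicle peak (7.69%, against 7.93% of all genes). Rps19bp1 and Rps6kb1 had an FGF19 peak (15.4%, against 16.3%). Both shares were near those of all genes. Fau and Gnb2l1, which encode ribosomal proteins under other symbols, had no promoter peak, and Fau had an FGF19 peak within 5 kb.

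The sequence under the highest peaks is shown to let the motif counts that follow be read against it. Stretches are from mm9, 5′ to 3′ on the strand of the gene, within 100 bp of the summit and shortened where they would run far into an untranslated region. Capitals mark any of 9 short motifs. The Rps12 window (chr10:23507097-23507297, minus strand) held none of them. The Rplp0 window (chr5:116009333-116009505, plus strand) held the NF-Y letters ATTGGC in the reverse direction at 2 places and a TATAAA box. The Rps20 window (chr4:3762489-3762663, minus strand) held none.
Rps12: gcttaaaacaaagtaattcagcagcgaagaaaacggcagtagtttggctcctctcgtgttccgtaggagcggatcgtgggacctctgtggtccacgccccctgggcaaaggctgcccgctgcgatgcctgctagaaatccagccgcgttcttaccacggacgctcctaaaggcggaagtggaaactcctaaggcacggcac
Rplp0: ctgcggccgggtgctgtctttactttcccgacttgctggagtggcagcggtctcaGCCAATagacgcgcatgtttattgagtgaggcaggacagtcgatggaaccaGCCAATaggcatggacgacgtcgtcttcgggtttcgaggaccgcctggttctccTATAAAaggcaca
Rps20: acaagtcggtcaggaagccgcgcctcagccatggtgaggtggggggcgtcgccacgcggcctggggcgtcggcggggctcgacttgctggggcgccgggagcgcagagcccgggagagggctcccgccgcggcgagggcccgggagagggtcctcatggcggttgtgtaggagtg

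Some motifs were more frequent in the promoters of the members (250 bases before to 50 after the gene start, both strands) than in those of all protein-coding genes. TCTCGCGA, letters bound by ZBTB33, was in 12 of 82 (14.6%) against 1.35%. CCGGAAG, the ETS family letters, was in 24 of 82 (29.3%) against 10.8%. AANATGGC, the core of the YY1 site, was in 9 of 82 (11.0%) against 6.56%. The E-box CACGTG was in 11.0% against 7.78% and GCATGCGC (NRF1) in 3.66% against 3.30%. CCCCGCCCC (SP1) was in 8.54% against 14.7% and ATTGGC in 12.2% against 16.1%. AGGTCA (the nuclear receptor half-site) was in 11.0% against 14.4% and TATAAA in 11.0% against 13.4%. None of the 9 motifs contains another, and TCTCGCGA matches that overlap on the opposite strand are shown as 1 site. A match is a run of letters and not a measured binding site.

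TCTCGCGA is shown because, of the 9 motifs, it had the largest ratio of its frequency in member promoters to that in all promoters. Over the genome, of the 302 promoters in the genome with these letters, 24.8% had a vehicle and 33.4% an FGF19 promoter peak. Among the 12 members with the letters, 3 had a vehicle and 3 an FGF19 promoter peak (25% each), which is near the share of all genes with these letters in the vehicle list. Within 100 bp of the summit the letters were present at 3 of 16 vehicle and 1 of 16 FGF19 member promoters, against 5.57% and 2.54% of all promoter peaks. They stood at 2 places at Rps19, 1 and 20 bp from the vehicle summit, and at Rpl7a (39 bp), Rpl10a (48 bp) and, in the FGF19 list, Rpl27a (23 bp). Capitals mark the motif in the following stretches, at chr7:25669573-25669602 and chr7:25669592-25669621 (Rps19), chr2:26766264-26766293 (Rpl7a), chr17:28465468-28465497 (Rpl10a) and chr7:116662677-116662706 (Rpl27a), all on the plus strand.
Rps19, first site: ggtttagccgcTCTCGCGAgcactccgaaa
Rps19, second site: gcactccgaaaTCTCGCGAgactcgacgcc
Rpl7a: agggcgcctgcTCTCGCGAtatctgcggcc
Rpl10a: taacgggcaacTCTCGCGAgaacgcgggct
Rpl27a: cgcctgctaccTCGCGAGActtcgtgagct

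CCGGAAG was counted more often at members of the FGF19 list, as were some other motifs. ATTGGC, for example, was in 5 of 15 promoters with an FGF19 peak only. It was in 1 of 15 with a vehicle peak only and 4 of 51 without a promoter peak, against 16.1% of all protein-coding promoters. These promoter windows are at the gene start, from which the Rpl24 and Rps2 summits lay 7535 and 1881 bp away. Within 100 bp of the summit ATTGGC was at 2 of 16 FGF19 member promoters (12.5%), against 11.8% of all FGF19 promoter peaks. It was at 0 of 16 vehicle member promoters, against 12.2%. Among the promoters with an FGF19 peak only, 7 of 15 held the letters CCGGAAG. With a vehicle peak only 2 of 15 held these letters, and without a promoter peak 15 of 51. Within 100 bp of the summit they were at 5 of 16 FGF19 member promoters (31.2%, 14.2 to 55.6, against 11.6% of all FGF19 promoter peaks) and at 1 of 16 vehicle member promoters (6.25%, against 10.3%). The intervals of the members overlapped between the lists. The FGF19 members included Rpl24 (11 bp from the summit), Rpl19 (48 bp), Rps2 (58 bp) and Rps21 (96 bp), and the vehicle member was Rpl26 (76 bp). The stretches, with the motif in capitals, lie at chr16:55973898-55973927 (Rpl24, plus), chr11:97887974-97888003 (Rpl19, plus), chr17:24856870-24856899 (Rps2, plus), chr2:179991985-179992014 (Rps21, plus) and chr11:68715061-68715090 (Rpl26, plus).
Rpl24: cccgcgcgtcaCTTCCGGtggtgcagcagc
Rpl19: acttagcgtgaCTTCCGGctacccagagga
Rps2: atttatacgtcCTTCCGGctggtgtagggc
Rps21: ctttctttgcaCCGGAAGcggaagttaaaa
Rpl26: aacttacagaaCCGGAAGtcgcgtgtagtt

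AANATGGC was at 5 of 19 vehicle member peaks (26.3%, 11.8 to 48.8, against 9.75% of all vehicle peaks) and at 2 of 21 FGF19 member peaks (9.52%, 2.65 to 28.9, against 7.54%). Within 50 bp of the summit the shares of member peaks were 10.5% with vehicle and 9.52% with FGF19, so the difference between the lists was not seen at that distance. One of the 5 and one of the 2 were peaks at the TSS of a neighbour (Surf1 and Lmln). At Rps3 the letters stood 6 bp from the vehicle summit, and their ATG is the annotated start codon of Rps3, so they are coding sequence as well as a possible factor site. The ATG of this core was the start codon at Rpl23a too, which had no promoter peak. The stretches below, with the motif in capitals, lie at chr7:106632116-106632145 (Rps3, minus), chr5:147644725-147644754 (Rpl21, plus), chr3:90017626-90017655 (Rps27, minus), chr7:25669529-25669558 (Rps19, plus) and chr16:55973915-55973944 (Rpl24, plus, FGF19 list).
Rps3: cgcgcggctgcAAGATGGCggtgcagattt
Rpl21: cggccgccgcaGCCATCTTccaggttggta
Rps27: aagaccttccgAAGATGGCgaagcaacacg
Rps19: gtggagatgaaGCCATATTcgccctcagaa
Rpl24: gtggtgcagcaGCCATTTTgtcagtcgcca

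A run of at least 5 pyrimidines that holds the annotated gene start or begins within 10 bases of it was found in 39 of 82 members (47.6%), against 37.5% of all protein-coding genes. It was present in 12 of the 17 members with a vehicle peak only, 8 of the 19 with an FGF19 peak only and 19 of the 45 without a peak. An annotated start is often a few bases from the true one, so the count is of the annotation as much as of the TOP motif. Examples with long runs are Rps12 (chr10:23506994-23507023, minus), Rpl26 (chr11:68715077-68715106, plus) and Rps27 (chr3:90017552-90017581, minus) from the vehicle list and Rpl8 (chr15:76734493-76734522, plus) from the FGF19 list, with the run in capitals.
Rps12: atgcggccaccgccggCCTTTTCCCCTgcc
Rpl26: agtcgcgtgtagTTCTCTTTCCTTTTgcgg
Rps27: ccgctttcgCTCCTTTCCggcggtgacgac
Rpl8: gctgcgttgacccgtctaTTTCCTCTTTCg

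A snoRNA gene lay inside 30 of the 82 members (36.6%), against 1.20% of all protein-coding genes. Of these hosts, 5 of 30 (16.7%, 7.34 to 33.6) had a vehicle peak and 9 of 30 (30%, 16.7 to 47.9) an FGF19 peak within 5 kb. Members without a snoRNA had 13 of 52 (25%) and 11 of 52 (21.2%). The host members were close to the 269 snoRNA hosts of the genome, of which 15.2% had a vehicle and 27.5% an FGF19 peak. The intervals of hosts and other members overlapped in both lists. The median GC content of the promoters was 56.0% for members with a vehicle peak only, 56.7% with an FGF19 peak only and 54.3% with none, and 55.0% over all protein-coding genes.

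Ribosomal protein genes have many processed copies in the genome, to which short reads can be misplaced. The 201 bp around the summit had another copy of at least 100 bp at 90% identity or more for 1 vehicle peak (Rpl12, 5 copies) and 1 FGF19 peak (Rpl31, 24 copies), against 5.11% and 3.49% of all peaks. The values of Rpl12 and Rpl31 are therefore uncertain. No such copy was found for the other members, but copies shorter than 100 bp were not counted. The search therefore cannot show that reads at the other members were placed correctly.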

How the data were processed

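SHP ChIP-seq was done by the authors on mouse liver, 1 pooled library and 1 input per group. Per the labels and the methods, reads were aligned to mm9 with Bowtie 1.0.0 (up to 2 mismatches) and peaks called against the input with MACS2 2.0.10.20130501 at a q-value of 0.05, with at most 1 tag per position. The deposited signal is the pileup at the summit, the deposited ratio is the fold enrichment over the local input, and the authors' peak caller also gave p-values and q-values, deposited as -log10. Here the peaks were joined to GENCODE M1 (mm9) by distance, peaks sharing at least 1 bp were called common, and motifs were searched within 100 bp of summits. No test was run. Members, comparison lists and motifs were chosen with earlier results of these data known. Named genes were all members with a vehicle peak, the 10 largest fold enrichments and 5 largest pileups with FGF19, members with a distant or second peak, and the rest by list. A few members are left unnamed in the text, and the counts include them. Functions were tested on simulated data. Alternatives covered distance, thresholds, list length, overlap and copies. Python 3.11.15, pandas 2.3.3, pysam 0.24.0 and BLAST+ 2.17.0 were used. Depth was 15473647 and 13444078 filtered tags, and no interval covers variation between mice.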

Additional observations from a re-analysis of the deposited data

How the results depend on the processing

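Of 70 alternative values, 56 stayed within the limits set for a change, 14 moved and 0 reversed. The members in both lists were 2 within 10 kb, 0 at a fold enrichment of at least 4 and 0 with summits at most 100 bp apart, which left no region for the Rps19 ratio. At a fold enrichment of at least 4, 7 members (8.54%, against 4.27% of all genes) had a vehicle peak. An FGF19 peak was at 11 (13.4%, against 8.61%). Of these, 7 and 11 were in that list only. With the FGF19 list shortened, 8 members (9.76%, against 8.06% of all genes) had an FGF19 peak and 7 of them no vehicle peak. The share of all genes in both lists or in 1 list only was not worked out under these alternatives. The counts of members shared or not shared under them therefore cannot be read as particular to the members. Counting the TSS of any gene, 94.7% of vehicle and 100% of FGF19 member peaks were at a TSS. The Rps19 log2 ratio was 0.0223 by pileup scaled to 1000000 filtered tags, and its -log10 q-value differed by 3.88. AANATGGC was within 50 bp of the summit at 10.5% of vehicle and 9.52% of FGF19 member peaks. Apart from the alternatives whose construction shows it (fewer peaks, a shorter distance, another measure), the cause was not tested. The summit-to-TSS rule for counting genes was chosen after seeing the data. No paired analysis was possible because each group is 1 pooled library without a replicate number. Depth limits the lists: a member just under the threshold is missing from them, and no count can be given an error between mice.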

Other observations

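Other genes of protein synthesis had promoter peaks (summit within 1 kb of a TSS) in both lists. By the same rule 5.52% of all protein-coding genes had a vehicle peak, 12.5% an FGF19 peak and 2.59% both. The 77 mitochondrial ribosomal protein genes serve the separate ribosome of the mitochondrion. They had 10 (13.0%, 7.21 to 22.3) with vehicle, 20 (26.0%, 17.5 to 36.7) with FGF19 and 4 (5.19%) in both. The 67 initiation and elongation factor genes had 7 (10.4%), 14 (20.9%) and 2 (2.99%). The 30 ribosome biogenesis genes, among them nucleolar factors and subunits of RNA polymerase I, had 4 (13.3%), 11 (36.7%) and 2 (6.67%). In these 3 lists the FGF19 count was above the vehicle count, as it was over all protein-coding genes, while the cytosolic ribosomal protein genes had 16 in each list and 1 in both. The intervals of the cytosolic and the mitochondrial list overlapped in each of these shares, and no difference between the lists was tested.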
